A study of Mus musculus with 12 samples.

Results

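The transcripts of 9 genes for the enzymes that methylate histone H3 at lysine 9 (H3K9) or DNA, and for their close partners, were examined in mouse hippocampus after knockdown of Hp1bp3. The genes were chosen by name, from what their proteins do, with earlier results of these data known. They were Suv39h1, Suv39h2, Setdb1, Ehmt1, Ehmt2, Atrx, Trim28, Dnmt1 and Dnmt3a. All 9 were among the 22236 genes of the deposited count table, and all 9 passed the filter on low counts that left 15853 genes for testing. Males of 2 inbred strains, C57BL/6J (B6) and DBA/2J (D2), aged 3 to 5 months, received an adeno-associated virus by bilateral injection into the hippocampus. The virus was AAV9-shRNA-Hp1bp3 (KD) or AAV-scrmb-shRNA, a scrambled hairpin (Ctrl), so all groups shared the surgery and a virus. Hippocampi were taken at least 6 weeks later, and whole-tissue RNA was sequenced in 12 libraries, 3 for each of B6 Ctrl, B6 KD, D2 Ctrl and D2 KD. Only infected cells carry the hairpin, and the homogenate also holds uninfected cells. In such bulk tissue, fewer cells of a type and less RNA per cell cannot be told apart.

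Methylation of H3K9 marks silent chromatin. SUV39H1 and SUV39H2 place the trimethyl mark at repeats near centromeres, SETDB1 places it at retroelements and at selected genes, and EHMT1 and EHMT2 (GLP and G9a) work as a pair to place the dimethyl mark in gene-rich chromatin. TRIM28 (KAP1) is bound to DNA by zinc-finger proteins and brings SETDB1 with it, and ATRX loads the histone variant H3.3 onto repeats. DNMT1 copies DNA methylation after replication, while DNMT3A sets new methylation and is the main such enzyme of mature neurons. HP1 proteins read methylated H3K9, and HP1BP3, the protein encoded by the targeted gene, is a relative of linker histone H1 that binds heterochromatin.

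Each library held between 18213084 and 39420219 expected counts, with a median of 32380282. Hp1bp3 stood at 308, 294 and 310 CPM (counts scaled to library size with TMM factors) in B6 Ctrl and at 185, 182 and 259 in B6 KD. In D2 it stood at 226, 215 and 234 in Ctrl and at 177, 163 and 230 in KD. The library labelled D2 KD 3 therefore lay within the range of the D2 Ctrl libraries, and results in D2 are also given without it. Over both strains Hp1bp3 had a log2 fold change of -0.39 ± 0.11 (SE, edgeR adjusted p = 0.0907), and of -0.48 ± 0.10 with that library left out. The second value is a description with no test, since the library was set apart by its Hp1bp3 level. All 8 neuronal markers were detected in every group, and their mean log2(CPM + 1) was 9.67 to 9.83 in B6 Ctrl, 9.41 to 9.72 in B6 KD and 9.62 to 9.79 over the D2 libraries. Choroid plexus markers, 10 genes of tissue that adjoins the hippocampus, split the libraries into 5 with a mean log2(CPM + 1) between 1.68 and 2.63 and 7 between 5.58 and 6.44, with both kinds in every group. Scores of 10 interferon-response genes ran from 4.96 to 6.6 in B6 KD and from 2.36 to 2.67 in B6 Ctrl. The 10 microglial markers ran from 5.61 to 6.36 and from 5.05 to 5.29, and the 6 astrocyte markers from 8.97 to 9.36 and from 8.56 to 8.62. In D2 the KD and Ctrl scores overlapped for each of these lists. Interferon-response scores there ran from 2.87 to 5.07 in KD and from 2.59 to 3.91 in Ctrl. Microglial scores ran from 4.85 to 5.75 and from 4.78 to 5.61, and astrocyte scores from 8.71 to 9.17 and from 8.72 to 9.42. D2 Ctrl 3 held the upper value of D2 Ctrl in each, and D2 KD 3 had an interferon-response score of 2.87. The part of these marker differences in the values below was not tested, other than with the choroid plexus score as a covariate, which made no call among the 9 genes.

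Levels were scaled per kilobase of annotated exon, with all annotated exons of a gene merged. The merged length was longest for Atrx (21757 bases) and Dnmt3a (16642 bases). It can exceed the length of the transcripts present, so this scale compares genes with each other only roughly. On this scale Ehmt2 and Trim28 were the most abundant of the 9. Their mean levels over 12 libraries were 36.2 ± 2.23 and 33.0 ± 2.13 CPM per kb (SD, n = 12), and their ranges overlapped. Next came Dnmt1 at 9.96 ± 0.781, Setdb1 at 9.22 ± 0.934, Atrx at 8.46 ± 0.931 and Dnmt3a at 7.10 ± 1.2 CPM per kb (SD, n = 12). Ehmt1 at 5.47 ± 0.443 and Suv39h1 at 5.00 ± 0.483 CPM per kb followed (SD, n = 12). Each gene from Dnmt1 down to Suv39h1 overlapped in range with its neighbour in this order, so only 2 steps in it were free of overlap. One was the step from Trim28 to Dnmt1, a 3.31-fold ratio of means, and the other was the step from Suv39h1 to Suv39h2, a 3.91-fold ratio. Suv39h2 was the scarcest, at 1.28 ± 0.128 CPM per kb (SD, n = 12), 28.3-fold below Ehmt2. Among all tested genes, and by CPM without regard to length, Ehmt2 ranked at percentile 93.3, Atrx at 92.6 and Suv39h2 at 26.3.

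**Figure D1:**
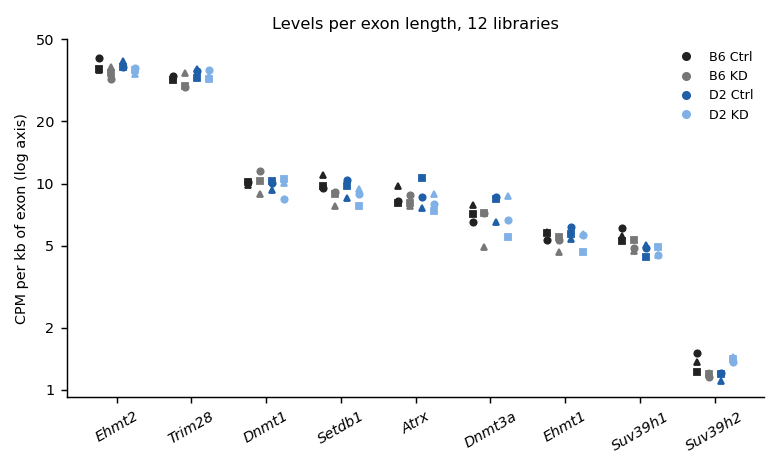
Levels of the 9 genes in CPM per kilobase of merged exon (log axis), with 1 point per library, coloured by group and with circles, squares and triangles for replicates 1, 2 and 3. Ehmt2 and Trim28 lay above 29 CPM per kb in all 12 libraries, and Suv39h2 lay between 1.11 and 1.5 in all 12.

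No member passed the test for an effect of treatment, of strain or of their interaction. Averaged over strains, 0 of 9 were called by edgeR at an adjusted p under 0.05, where 0% of all genes tested were called. At an unadjusted p under 0.05 stood 1 of the 9, Setdb1, and 19.2% of all genes. DESeq2 and limma-voom also called 0 of 9 in this comparison, against 7.83% and 0.00% of all genes. At an unadjusted p under 0.05 stood 2 and 1 of 9 (21.3% and 18.9% of all genes). In B6 alone, 0 of 9 were called where 2.64% of all genes were, and 0 of 9 stood at an unadjusted p under 0.05, as did 20.6% of all genes. By DESeq2 these were 2 of 9 and 23.2%, and by limma-voom 1 of 9 and 21.5%. In D2 alone, 0 of 9 were called where 0% of all genes were, with 0 of 9 at an unadjusted p under 0.05 by edgeR, DESeq2 and limma-voom. By these tools 2.85%, 3.24% and 2.42% of all genes stood at an unadjusted p under 0.05. For the interaction, 0 of 9 were called where 0% of all genes were, and by each of the 3 tools 1 of 9, Suv39h2, stood at an unadjusted p under 0.05, as did 5.91% of all genes by edgeR.

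The estimates themselves were small and mostly below 0. Averaged over strains, 8 of 9 members had a log2 fold change below 0, as did 48.8% of all genes tested, and the median was -0.11 for the members and 0.00571 for all genes. These 9 values come from the same 12 libraries, and several of the genes varied together between libraries, as described below. The 95% intervals of the 9 log2 fold changes reached between 0.124 and 0.302 to either side of the estimate. With 1 library left out, the estimate ran from -0.16 to -0.04 for Atrx (-0.04 without D2 Ctrl 2), from -0.11 to -0.04 for Trim28 (-0.11 without B6 KD 3), from -0.26 to -0.09 for Dnmt3a and from -0.16 to -0.08 for Ehmt1 (-0.09 and -0.08 without D2 KD 2). For Trim28, the lower bound of that interval was -0.18, and for Dnmt3a it was -0.47.

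**Figure D2:**
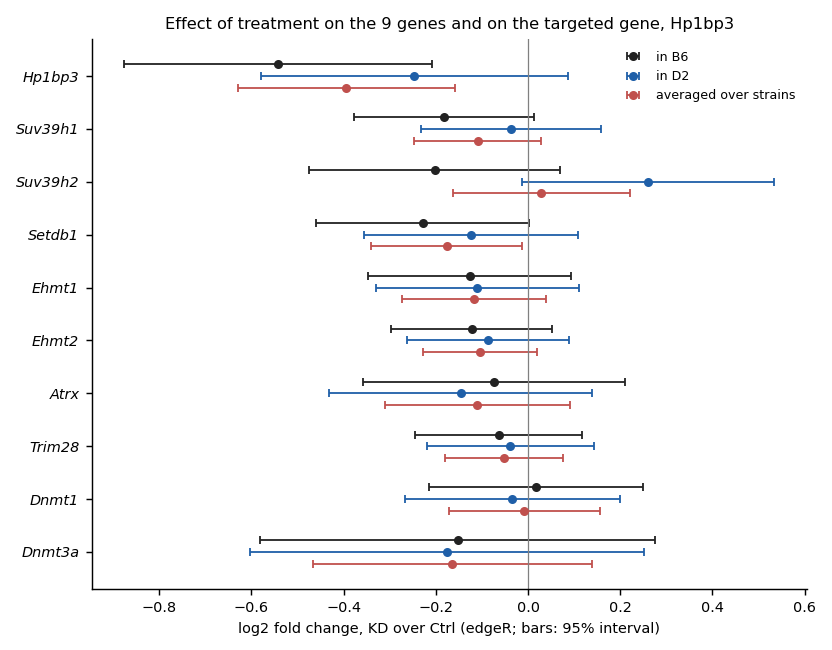
Log2 fold change of KD over Ctrl for Hp1bp3 and the 9 genes, in B6, in D2 and averaged over strains, with 95% intervals from the edgeR fit of all 12 libraries. Averaged over strains, the intervals of Hp1bp3 and Setdb1 left out 0 before adjustment, and those of the other 8 genes held 0.

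Suv39h1 (chrX:8061171-8074760, minus strand, GRCm38) and Suv39h2 (chr2:3455815-3475031, minus strand) encode the enzymes of heterochromatin near centromeres. Suv39h1 measured 32, 27.8 and 29.2 CPM in B6 Ctrl and 25.7, 27.9 and 24.9 CPM in B6 KD. The D2 levels were 25.6, 23.2 and 26.6 CPM in Ctrl and 23.8, 25.9 and 23.8 CPM in KD. The KD and Ctrl libraries overlapped in both strains. Its log2 fold change was -0.18 ± 0.09 (SE, adjusted p = 0.273) for B6 mice and -0.04 ± 0.09 for D2 mice (adjusted p = 1).

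Suv39h2 was the one member whose KD libraries lay on opposite sides of Ctrl in the 2 strains. It measured 6.63, 5.35 and 6.02 CPM in B6 Ctrl and 5.11, 5.26 and 5.29 CPM in B6 KD. Among D2 mice the levels were 5.33, 5.26 and 4.89 CPM in Ctrl and 6.01, 6.21 and 6.33 CPM in KD. The highest of these D2 levels was that of D2 KD 3, where Hp1bp3 lay in the D2 Ctrl range. All 3 KD libraries thus lay below all 3 Ctrl libraries in B6 and above them in D2. This pattern held for 0.158% of all genes tested, and for 0.214% when the opposite pattern is counted too. These shares are a description with no test. The gap in B6 was narrow, between 5.29 and 5.35 CPM. The log2 fold change was -0.20 ± 0.12 (SE, adjusted p = 0.384) for B6 mice and 0.26 ± 0.12 for D2 mice (adjusted p = 1). The interaction, KD effect in D2 minus that in B6, was 0.46 ± 0.18 on the log2 scale (95% interval 0.08 to 0.85, adjusted p = 0.821). When D2 KD 3 was left out it was 0.45 ± 0.19 (adjusted p = 0.976). Suv39h2 had between 93 and 246 expected counts per library, and the counting error of a single library averaged 7.07% to 8.91% by group. The spread between its libraries (coefficient of variation) was below that counting error for B6 KD at 1.89%, for D2 KD at 2.57% and for D2 Ctrl at 4.59%, and above it for B6 Ctrl at 10.7%. Its exons overlap those of Dclre1c on the other strand.

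Setdb1 (chr3:95323525-95357202, minus strand) encodes the enzyme of H3K9 trimethylation that TRIM28 recruits, and had the largest estimate of the 9 averaged over strains with all 12 libraries. Without D2 KD 3 that of Dnmt3a was larger, at -0.26 against -0.21. It measured 65.0, 66.7 and 75.0 CPM in B6 Ctrl and 62.1, 60.9 and 53.5 CPM in B6 KD, with no overlap. D2 Ctrl libraries held 71.0, 66.4 and 58.2 CPM and D2 KD libraries 61.1, 53.6 and 64.6 CPM, and there the groups overlapped. The log2 fold change over both strains was -0.18 ± 0.07 (SE, unadjusted p = 0.0371, adjusted p = 0.232), and that of B6 was -0.23 ± 0.11 (adjusted p = 0.249). In D2 it was -0.12 ± 0.11 with all libraries (adjusted p = 1) and -0.18 ± 0.12 when D2 KD 3 was left out (adjusted p = 0.713). In B6, KD libraries lay below all Ctrl libraries for 2 of 9 members, Setdb1 and Suv39h2, and for 14.0% of all genes. Setdb1 shares exonic bases with Cers2 on the other strand.

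Ehmt1 (chr2:24789928-24919614, minus strand) and Ehmt2 (chr17:34898469-34914052, plus strand) encode partners in 1 dimethyltransferase complex. Ehmt1 measured 43.4, 46.9 and 47.3 CPM in B6 Ctrl and 43.4, 44.8 and 37.9 CPM in B6 KD. The D2 levels were 50.1, 46.1 and 43.6 CPM in Ctrl and 45.6, 37.8 and 46.1 CPM in KD, so that the groups overlapped in both strains. Ehmt2 measured 223, 198 and 196 CPM in B6 Ctrl and 177, 188 and 201 CPM in B6 KD. Among D2 mice the levels were 201, 201 and 216 CPM in Ctrl and 200, 195 and 187 CPM in KD, where the KD libraries lay just below all Ctrl libraries. In D2 that order held for 1 of 9 members and for 3.03% of all genes. The reverse order, KD above all Ctrl libraries in D2, held for 1 of 9 members, Suv39h2, and for 2.93% of all genes. Averaged over strains, the log2 fold change was -0.12 ± 0.07 (SE) for Ehmt1 (adjusted p = 0.392) and -0.10 ± 0.06 for Ehmt2 (adjusted p = 0.335).

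Atrx (chrX:105797615-105929403, minus strand), which encodes the chromatin remodeller of repeats, measured 179, 175 and 211 CPM in B6 Ctrl and 192, 176 and 169 CPM in B6 KD. D2 Ctrl libraries held 187, 230 and 165 CPM and D2 KD libraries 173, 160 and 194 CPM. The groups overlapped in both strains, and the log2 fold change averaged over strains was -0.11 ± 0.09 (SE, adjusted p = 0.547). Trim28 (chr7:12999114-13031035, plus strand), the corepressor, measured 138, 132 and 136 CPM in B6 Ctrl and 122, 124 and 143 CPM in B6 KD. The D2 levels were 146, 136 and 150 CPM in Ctrl and 149, 134 and 138 CPM in KD. Trim28 had the narrowest spread of the 9 in B6 Ctrl apart from Dnmt1, with a coefficient of variation of 2.09% between libraries. The groups overlapped in both strains, and the log2 fold change averaged over strains was -0.05 ± 0.06 (SE, adjusted p = 0.663).

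Dnmt1 (chr9:20907209-20959888, minus strand), the maintenance DNA methyltransferase, measured 75.2, 75.4 and 72.9 CPM in B6 Ctrl and 84.5, 76.2 and 65.7 CPM in B6 KD. Among D2 mice the levels were 74.0, 75.8 and 68.9 CPM in Ctrl and 62.2, 77.4 and 73.9 CPM in KD. The KD libraries surrounded the Ctrl libraries in B6 and in D2, and the log2 fold change averaged over strains was -0.01 ± 0.07 (SE, 95% interval -0.17 to 0.16, adjusted p = 0.966). Dnmt3a (chr12:3806007-3914443, plus strand), the de novo enzyme, measured 108, 119 and 130 CPM in B6 Ctrl and 120, 120 and 81.9 CPM in B6 KD. D2 Ctrl libraries held 144, 141 and 108 CPM and D2 KD libraries 111, 91.6 and 146 CPM. Dnmt3a had the widest spread of the 9 in the KD groups, with coefficients of variation of 20.4% in B6 KD and 23.6% in D2 KD, while Atrx was wider in both Ctrl groups. The counting error of Dnmt3a averaged 1.62% to 1.77% per library. Its log2 fold change was -0.18 ± 0.19 (SE) in D2 (adjusted p = 1), and -0.37 ± 0.19 when D2 KD 3, which held its highest level, was left out (adjusted p = 0.651). Averaged over strains it was -0.16 ± 0.14 (adjusted p = 0.548). The Dnmt3a exons share bases with the antisense gene Dnmt3aos.

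**Figure D3:**
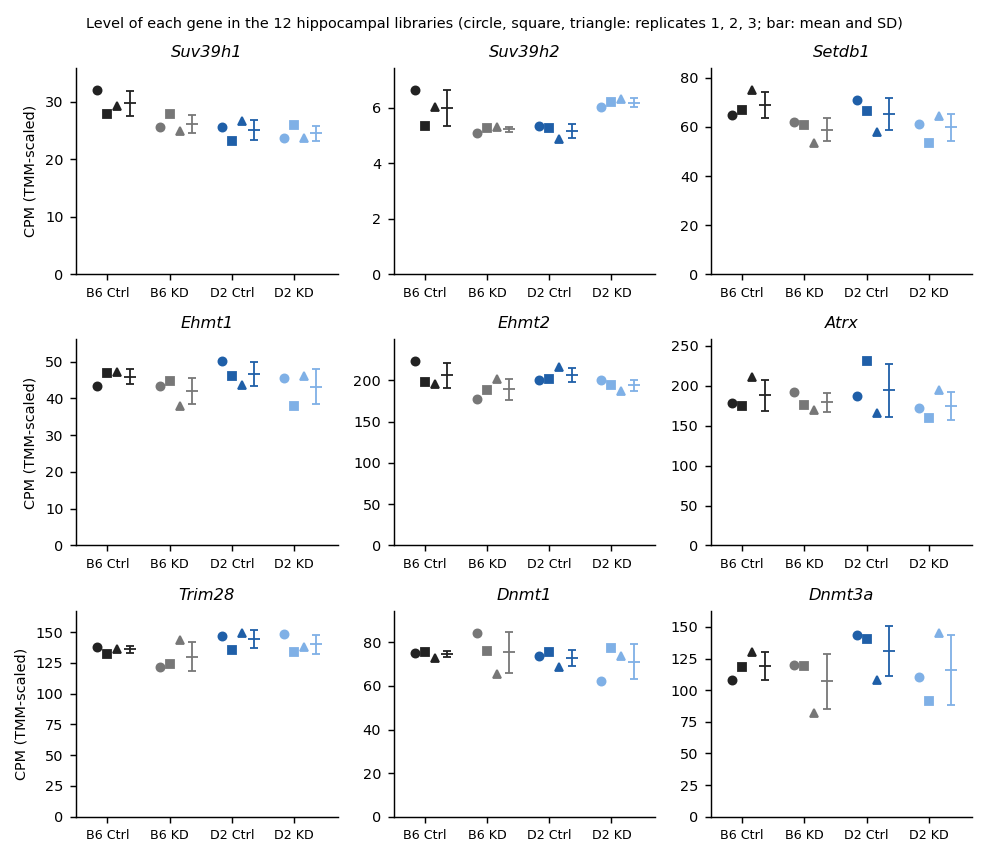
TMM-scaled CPM of each of the 9 genes in the 12 libraries, by group, with circles, squares and triangles for replicates 1, 2 and 3 and bars for the mean and SD of 3. Suv39h2 KD libraries lay below Ctrl in B6 and above Ctrl in D2, and Setdb1 KD libraries lay below Ctrl in B6 at 53.5 to 62.1 against 65.0 to 75.0 CPM.

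The balance between related enzymes within a library does not depend on how libraries are scaled. The count of Ehmt2 over that of Ehmt1 averaged 4.5 ± 0.549 for Ctrl and 4.53 ± 0.687 for KD among B6 mice, and 4.45 ± 0.474 for Ctrl and 4.53 ± 0.561 for KD among D2 mice (SD, n = 3 per group). The difference between KD and Ctrl averaged over strains was 0.02 on the log2 scale (exact 2-sided permutation test, p = 0.79, adjusted p = 0.935). The count of Suv39h1 over that of Suv39h2 was 4.83, 5.21 and 4.86 in B6 Ctrl, and 5.04, 5.31 and 4.71 in B6 KD. In D2 it was 4.81, 4.41 and 5.45 in Ctrl and 3.95, 4.18 and 3.76 in KD. All 3 D2 KD libraries lay below the other 9, and the lowest was D2 KD 3. This ratio holds the same Suv39h2 counts, 93 to 246 per library, and is not independent of the Suv39h2 levels given above. The log2 difference between D2 and B6 averaged over treatments was -0.18, with -0.03 in Ctrl and -0.34 in KD, and did not pass after adjustment over 6 ratio tests (exact permutation p = 0.045, adjusted p = 0.27). The log2 difference between KD and Ctrl averaged over strains was -0.14, with 0.01 in B6 and -0.30 in D2 (exact permutation p = 0.095, adjusted p = 0.285). The count of Dnmt3a over that of Dnmt1 averaged 1.60 ± 0.176 for Ctrl and 1.41 ± 0.16 for KD among B6 mice, and 1.79 ± 0.199 for Ctrl and 1.64 ± 0.410 for KD among D2 mice (SD, n = 3 per group). Its log2 difference was -0.17 for treatment (exact permutation p = 0.225, adjusted p = 0.338) and 0.18 for strain (exact permutation p = 0.21, adjusted p = 0.338). The smallest p that the 400 assignments allow is 0.005.

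**Figure D4:**
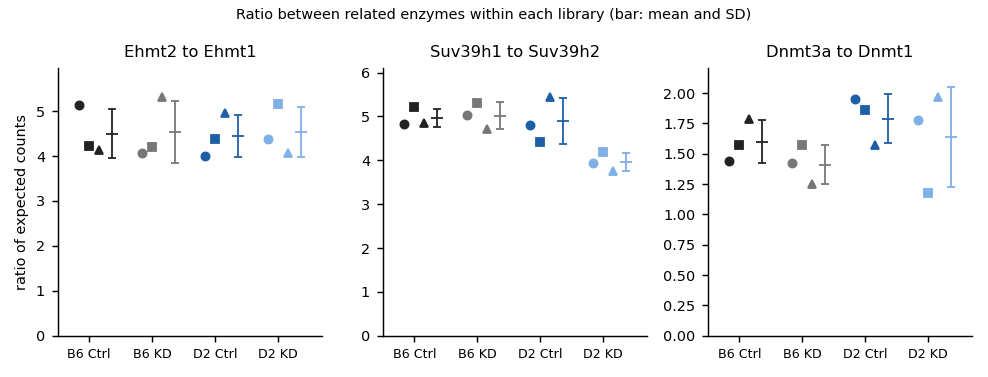
Ratios of expected counts between Ehmt2 and Ehmt1, Suv39h1 and Suv39h2, and Dnmt3a and Dnmt1 in the 12 libraries, by group, with bars for the mean and SD of 3. The Suv39h1 to Suv39h2 ratio of the D2 KD libraries lay between 3.76 and 4.18, below the 9 other libraries at 4.41 to 5.45.

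Between the strains, too, no member was called, although many other genes were. D2 and B6 differed for 0 of 9 members and 14.0% of all genes in Ctrl, for 0 of 9 and 15.0% in KD, and for 0 of 9 and 21.3% averaged over treatments. By DESeq2 and limma-voom 0 of 9 were called in each of these 3 comparisons. At an unadjusted p under 0.05 stood 1 of 9 in Ctrl, 0 of 9 in KD and 1 of 9 averaged over treatments by edgeR, and the member was Suv39h1. Of all genes, 23.2%, 26.3% and 30.3% did. Its log2 difference, D2 minus B6, was -0.17 ± 0.06 (SE) averaged over treatments (adjusted p = 0.0877), -0.24 ± 0.09 in Ctrl (adjusted p = 0.115) and -0.10 ± 0.09 in KD (adjusted p = 0.571). Over the alternatives, the adjusted p of the averaged value of Suv39h1 ran from 0.0746 to 0.231. In Ctrl, all 3 D2 libraries lay below all 3 B6 libraries for 2 of 9 members, Suv39h1 and Suv39h2, and for 17.9% of all genes. In KD, the D2 libraries lay above all B6 libraries for 1 of 9, Suv39h2, and for 12.6% of all genes. The log2 strain difference of Suv39h2 was -0.22 ± 0.12 in Ctrl (adjusted p = 0.346) and 0.24 ± 0.12 in KD (adjusted p = 0.247). Averaged over treatments, the other 7 members lay between -0.06 ± 0.07 for Dnmt1 (adjusted p = 0.668) and 0.12 ± 0.14 for Dnmt3a (adjusted p = 0.611). The reads of each mouse were aligned to the genome of its own strain, so a difference between strains and one between the 2 genomes or annotations cannot be told apart.

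Across libraries, Setdb1, Ehmt1 and Dnmt3a went up and down together. Over the 12 libraries, the Pearson correlation of log2(CPM + 1) was 0.89 between Setdb1 and Ehmt1, 0.82 between Setdb1 and Dnmt3a, and 0.89 between Ehmt1 and Dnmt3a. With the mean of each group removed, these values were 0.90, 0.93 and 0.89. The trio was picked after the correlations among the members were seen. For comparison, the tenth highest correlation with any tested gene was 0.920 for Setdb1, 0.876 for Ehmt1 and 0.952 for Dnmt3a. Correlations of this size were therefore not particular to the trio. The libraries B6 KD 3 and D2 KD 2 were the lowest of the 12 for all 3 genes, at 53.5 and 53.6 CPM of Setdb1, 37.9 and 37.8 of Ehmt1, and 81.9 and 91.6 of Dnmt3a. These 2 libraries had Hp1bp3 at 259 and 163 CPM, totals of 39420219 and 37518043 counts, and choroid plexus scores of 6.44 and 1.68. Atrx followed Dnmt3a with a correlation of 0.73 and Setdb1 with 0.70. Ehmt2 did not follow the trio, with -0.02 against Setdb1, -0.04 against Ehmt1 and -0.26 against Dnmt3a, and within groups -0.71, -0.59 and -0.75. Trim28 was high where Dnmt1 was low, with a correlation of -0.81 over the 12 libraries and -0.91 within groups.

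The points of these correlations share their library, its depth and its tissue makeup. The mean log2 level of 6 myelin markers correlated within groups with Setdb1 at 0.82, Ehmt1 at 0.72, Dnmt3a at 0.74 and Ehmt2 at -0.83, and over the 12 libraries as such at 0.50, 0.31, 0.22 and -0.38. For the interferon-response score the values over the 12 libraries were -0.67 with Setdb1, -0.53 with Ehmt1 and -0.48 with Dnmt3a. Within groups these were -0.39, -0.22 and -0.36. The mean log2 level of 4 markers of oligodendrocyte precursors correlated with Trim28 at -0.71 and with Dnmt1 at 0.76 over the 12 libraries. The library total correlated with Setdb1 at -0.16, Ehmt1 at -0.41 and Dnmt3a at -0.43. The part of tissue makeup and depth in the shared variation was not tested.

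**Figure D5:**
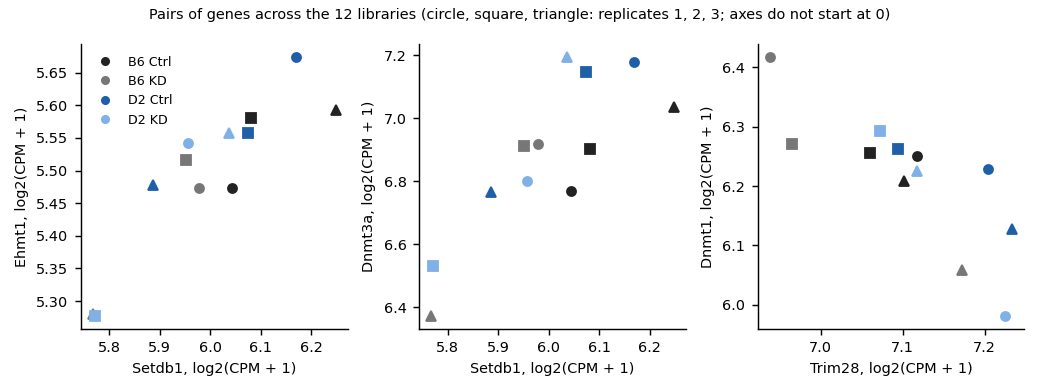
Levels of Setdb1 against Ehmt1, Setdb1 against Dnmt3a, and Trim28 against Dnmt1, as log2(CPM + 1), with 1 point per library, coloured by group. In the first and second panels the libraries B6 KD 3 and D2 KD 2 lie at the lower left (53.5 and 53.6 CPM of Setdb1), and in the third panel the points run from upper left to lower right (r = -0.81 over 12 libraries).

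For the trio that varied together, the 250 bases before the annotated start are shown from RefSeq (GRCm38.p6), read 5′ to 3′ on the strand of the gene, with each CG dinucleotide, the site of DNA methylation, in capitals. The windows are chr3:95357203-95357452 (minus strand) for Setdb1, chr2:24919610-24919859 (minus strand) for Ehmt1 and chr12:3806730-3806979 (plus strand, the first of 3 listed starts) for Dnmt3a. RefSeq and GENCODE starts can differ, and the Dnmt3a window lies inside its GENCODE gene (chr12:3806007-3914443).
Setdb1: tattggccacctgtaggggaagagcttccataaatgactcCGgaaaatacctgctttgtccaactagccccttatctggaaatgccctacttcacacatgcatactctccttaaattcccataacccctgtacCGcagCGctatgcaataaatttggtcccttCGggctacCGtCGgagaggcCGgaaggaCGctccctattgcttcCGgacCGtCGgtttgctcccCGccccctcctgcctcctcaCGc
Ehmt1: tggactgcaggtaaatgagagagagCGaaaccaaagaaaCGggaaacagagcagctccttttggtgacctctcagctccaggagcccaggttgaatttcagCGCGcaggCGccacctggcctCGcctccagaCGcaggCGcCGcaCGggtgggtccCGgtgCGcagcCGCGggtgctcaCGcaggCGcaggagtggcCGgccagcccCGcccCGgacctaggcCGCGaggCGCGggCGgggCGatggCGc
Dnmt3a: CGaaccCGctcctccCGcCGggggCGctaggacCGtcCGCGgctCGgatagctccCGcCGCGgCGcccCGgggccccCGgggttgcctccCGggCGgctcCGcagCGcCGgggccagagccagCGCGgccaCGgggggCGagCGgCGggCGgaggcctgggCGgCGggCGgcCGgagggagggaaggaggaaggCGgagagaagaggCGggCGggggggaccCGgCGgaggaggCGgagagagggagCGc
The windows hold 13, 26 and 38 CG dinucleotides, a count that reads the same on both strands. Of the 32851 promoter windows of this length in the table, with a median count of 6, the share with at least as many was 31.5%, 9.59% and 1.88%. Windows of all 9 genes were listed, and for the first listed start of the other 6 the count ran from 6 for Atrx to 27 for Suv39h2. At the later listed starts of Dnmt3a the count was 40 and 15. These counts describe the reference sequence. DNA methylation was not measured here.

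The tested gene whose log2(CPM + 1) followed each member most closely over the 12 libraries was a different one for every member. It was Zbtb5 for Ehmt1 (r = 0.969), Zfhx4 for Dnmt3a (r = 0.969), Rcc2 for Trim28 (r = 0.948), Rps6kb1 for Atrx (r = 0.946) and Atp2b1 for Setdb1 (r = 0.945). It was Rbck1 for Suv39h1 (r = 0.923), Ubac1 for Ehmt2 (r = 0.919), Utrn for Dnmt1 (r = 0.915) and Nkpd1, itself scarce at a mean of 0.685 CPM, for Suv39h2 (r = 0.839). Each value is the highest of 15852 compared over 12 libraries. The tenth highest was not far below, from 0.738 for Suv39h2 to 0.952 for Dnmt3a.

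Beyond the 9 genes, 65 others of the same pathways were followed in 9 lists, and 61 of them passed the filter on low counts. Averaged over strains, 0 of 61 were called for treatment by edgeR, with 8 of 61 at an unadjusted p under 0.05, against 19.2% of all genes. DESeq2 called 5 of 61 and 7.83% of all genes, and limma-voom 0 of 61. In B6, 2 of 61 were called, 1 in each direction, near the 2.64% of all genes. In D2, 0 of 61 were called, with 1 of 61 at an unadjusted p under 0.05, against 0.00% and 2.85% of all genes. DESeq2 and limma-voom called 0 of 61 there (0.00631% and 0.00% of all genes). For the interaction, 0 of 61 were called by edgeR, DESeq2 and limma-voom, with 3 of 61 at an unadjusted p under 0.05 by each. By these tools 0.00%, 0.0694% and 0.00% of all genes were called, and 5.91%, 7.14% and 5.39% stood at an unadjusted p under 0.05.

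The 2 genes called in B6 were Uhrf1 and Zbtb4. Uhrf1, which encodes the factor that brings DNMT1 to newly copied DNA, rose from 1.27, 1.45 and 1.07 CPM in Ctrl to 2.84, 2.63 and 3.00 CPM in KD (log2 fold change 1.16 ± 0.27, SE, adjusted p = 0.0488). It stood at 1.49, 1.59 and 2.41 CPM in D2 Ctrl and at 3.15, 2.00 and 1.83 CPM in D2 KD. The level of Uhrf1 was low, with 28 to 119 expected counts per library. The 8 markers of cycling cells had a mean log2(CPM + 1) of 1.89 to 2.00 in B6 Ctrl and of 2.46 to 2.89 in B6 KD, and their part in the Uhrf1 result was not tested. Zbtb4, which encodes a zinc-finger protein that binds methylated DNA, fell from 207, 202 and 201 CPM to 145, 149 and 159 CPM (log2 fold change -0.43 ± 0.10, SE, adjusted p = 0.0453). With 1 library left out, Uhrf1 was still called without D2 Ctrl 3 or D2 KD 3 and lost its call without any of the others (adjusted p from 0.0519 to 0.192). Zbtb4 was still called without B6 KD 3, D2 Ctrl 3, D2 KD 2 or D2 KD 3 and lost its call without any of the others (adjusted p from 0.0537 to 0.189). Both also lost their calls with no filter on low counts and with either covariate, and Uhrf1 with the B6 libraries alone. The log2 fold changes in these fits ran from 1.05 to 1.16 for Uhrf1 and from -0.44 to -0.43 for Zbtb4. In B6, DESeq2 called both (adjusted p = 0.00361 for Uhrf1 and 0.000523 for Zbtb4), where it called 10.6% of all genes. So did limma-voom (adjusted p = 0.0463 and 0.0473), where it called 2.32% of all genes.

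List by list, the treatment effect in B6 was called for 0 of 4 other H3K9 methyltransferases, 0 of 10 partners of the H3K9 methyltransferases, 0 of 3 factors of H3.3 deposition, 0 of 3 HP1 proteins and 0 of 11 H3K9 demethylases. It was called for 1 of 5 other DNA methylation factors (Uhrf1), 0 of 7 DNA demethylation factors, 1 of 10 methylated DNA readers (Zbtb4) and 0 of 8 germline genes, whose promoters are methylated in somatic cells. The smallest p among partners belonged to Cdyl, which encodes a chromodomain corepressor, with 0.44 ± 0.13 in B6 (SE, adjusted p = 0.085 by edgeR and 0.0288 by DESeq2). For D2 mice the Cdyl value was -0.06 ± 0.13 (SE). H3f3b, 1 of the 2 genes for H3.3, had a log2 fold change of 0.64 ± 0.16 (SE, adjusted p = 0.0599 by edgeR and 0.00654 by DESeq2) for B6 mice and 0.35 ± 0.16 for D2 mice (adjusted p = 1). Its 6 KD libraries held 266, 299 and 348 CPM in B6 and 311, 301 and 197 CPM in D2, the last being the library labelled D2 KD 3, against 180 to 227 CPM in the 6 Ctrl libraries. Genes for H3.3 have close copies in the genome, between which counting may split reads. Without the library labelled D2 KD 3, edgeR called 5 of the pathway genes averaged over strains, and 799 of all genes tested. That library was set apart by its Hp1bp3 level, so these values are a description with no test. The examples given here were chosen after their values were seen. Uhrf1 (log2 fold change 0.82) and H3f3b (0.59) were higher in KD, and Zbtb4 (-0.36) and Mbd3 (-0.27), which encode a reader of methylated DNA and a relative of such readers, were lower. With that library left out, edgeR called none of the 9 members in any of the comparisons.

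Strain differences were called for 8 of 61 genes averaged over treatments, 4 higher and 4 lower in D2, against 21.3% of all genes. The HP1 gene Cbx1 measured 47.3 to 53.0 CPM in B6 Ctrl and 22.0 to 27.5 CPM in D2 Ctrl, and its log2 difference averaged over treatments was -1.12 ± 0.07 (SE, adjusted p = 5.79e-07). Tdg, which encodes the glycosylase that removes oxidised methylcytosine, had -1.37 ± 0.12 (adjusted p = 4.93e-06). Tdg shares exonic bases with Glt8d2 on the other strand. Hells, which encodes a remodeller needed for DNA methylation, had -0.72 ± 0.14 (adjusted p = 0.00341). Zbtb38, a gene for another reader of methylated DNA, had -1.19 ± 0.31 (adjusted p = 0.0185). That call was lost without B6 Ctrl 3 (-1.10, adjusted p = 0.0517) or without D2 KD 1 (-1.05, adjusted p = 0.0505). Zbtb38 was uneven within D2, at 41, 36 and 14 CPM in Ctrl and 15, 15 and 43 CPM in KD, against 50 to 77 CPM over the B6 libraries. Prdm2, which encodes a further H3K9 methyltransferase, was higher in D2 by 0.33 ± 0.08 (adjusted p = 0.00986). The other 3 were germline genes of meiosis or of transposon silencing, Mael, Sycp1 and Sycp3, all higher in D2 and all scarce. Mael had 0 to 22 expected counts per library in B6 and 32 to 125 in D2 (adjusted p = 0.000279). Sycp1 had 0 counts in 5 of the 6 B6 libraries, 28 in B6 KD 3, and 8 to 26 counts in D2 (adjusted p = 0.0406). Its call was lost with either covariate (adjusted p = 0.0515 and 0.0518) and without any 1 of the B6 Ctrl or D2 KD libraries or D2 Ctrl 1 or 2 (adjusted p from 0.0603 to 0.0814). Sycp3 had 1.75 ± 0.28 on the log2 scale (adjusted p = 0.000707), and 660 of its 1264 annotated exon bases overlap Chpt1 on the other strand.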

How the data were processed

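Hippocampal mRNA of 12 mice was sequenced in paired-end libraries, and groups were taken from the strain and treatment labels alone. Replicates are separate samples per the labels, numbered in order of deposit, so numbers pair nothing, and p-values measure only the spread between these samples. A barcode clash led to a second run, which the authors joined with the first for 10 of 12 samples; which ones is not given in the sources used here. The authors aligned B6 reads to a B6 genome and D2 reads to a D2 genome. The submitters' processing notes name RSEM 1.2.12, Bowtie2 2.2.0, DESeq2, GRCm38 and mm10.

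The authors deposited an expected count for every gene from RSEM, not normalized and with decimals in 15.8% of values. The authors also deposited a normalized signal per gene. Dividing it into whole reads showed that it equals the expected count without its decimals over 1 size factor per library, for 100% of 266784 values (tolerance 0.001 reads).

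Expected counts were rounded and tested with the edgeR 4.0.16 quasi-likelihood F-test in R 4.3.3 (TMM, filterByExpr, robust, 4 group means, Benjamini-Hochberg over 15853 genes, calls at an adjusted p under 0.05). SEs were the log2 fold change over the square root of F. CPM are TMM-scaled, and a pseudocount of 1 was added before logs. Ratios were compared by exact permutation within strata. Alternatives were edgeR with RLE, no filter, the newer quasi-likelihood method, non-robust estimation or a covariate (library total or choroid plexus score), DESeq2 1.42.0, limma-voom (limma 3.58.1), the libraries of 1 strain, leaving out each library, and, added after seeing the data, truncated counts. The code was tested on simulated data. The precision is limited by 3 libraries per group and, for Suv39h2, by counts of 93 to 246. Positions and exon lengths came from GENCODE M21 (GRCm38), matched by Ensembl identifier for 21933 of 22236 genes, and promoters from RefSeq. D2 genome positions were not analysed here. Strandedness is not given in the sources used here, so overlapping genes on both strands cannot be told apart. The members and lists were chosen with earlier results of these data known. From each list, genes called in a comparison were named (at most 4, by p), or else the gene with the smallest p. In the count table, 27 symbols had become dates and were restored from identifiers. One gene of the pathway lists is not reported here by name.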

Additional observations from a re-analysis of the deposited data

Results flagged for a closer look

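Suv39h2 had treatment estimates of opposite sign in the 2 strains. All 3 KD libraries lay below Ctrl in B6 and above Ctrl in D2, where D2 KD 3, with Hp1bp3 in the D2 Ctrl range, was highest. The log2 effect of treatment in D2 minus that in B6 was 0.46 ± 0.18 (SE). The edgeR test of this difference gave an adjusted p of 0.821, and over the alternatives it ran from 0.453 to 1. The difference itself ran from 0.40 to 0.56 when each library was left out in turn, and from 0.42 to 0.49 in the other alternatives. The gene was counted at 93 to 246 reads per library, and 25 of the 15853 genes tested showed the same order of libraries (34 with the opposite order counted too). These numbers of genes are a description with no test.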

How the results depend on the processing

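No paired analysis was possible because replicate numbers were given in order of deposit and the labels pair no samples. None of the 9 genes was called in any of the 7 comparisons under any of the 21 alternatives, or with the libraries of 1 strain alone. Of 879 values of the 9 genes under alternatives, 855 kept their direction. Those that did not lay between -0.1020 (Dnmt1 in B6, without B6 KD 1) and 0.0406 on the log2 scale. With all libraries, for Dnmt1 they were the effect averaged over strains with the choroid plexus covariate (0.0130) and the B6 effect with RLE (-0.0031) and with DESeq2 (-0.0034), and for Atrx the strain difference with the library total as covariate (-0.0178). When each library was left out in turn, the log2 effect averaged over strains ran from -0.0230 to 0.0472 for Suv39h2 and -0.0751 to 0.0163 for Dnmt1, that in B6 from -0.10 to 0.0801 for Dnmt1, that in D2 from -0.0907 to 0.0041 for Suv39h1 and -0.10 to 0.0406 for Dnmt1, and the strain difference from -0.0225 to 0.0643 for Suv39h2, -0.0570 to 0.0194 for Setdb1 and -0.0612 to 0.0676 for Atrx. The log2 ratio of Ehmt2 to Ehmt1 then ran from -0.0444 to 0.0654 for treatment and from -0.0539 to 0.0547 for strain. That of Suv39h1 to Suv39h2 for strain ran from -0.22 to -0.15, and without D2 Ctrl 3 its adjusted p was 0.03. Ratios from the authors' normalized counts kept every direction and call.

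Counts over all genes depended more on the test. Averaged over strains, edgeR called 0 genes (3046 at an unadjusted p under 0.05), DESeq2 1241, limma-voom 0 and the newer quasi-likelihood method 15, and without D2 KD 3 edgeR called 799. In B6 edgeR called 418, DESeq2 1688 and both covariate fits 0, and leaving out 1 library gave 0 to 790. In D2, DESeq2 called 1 and for the interaction 11, where edgeR called 0 in each. Among the 61 pathway genes, the calls in B6 were 2 by edgeR (2.64% of all genes), 8 by DESeq2 (10.6% of all genes) and 0 to 3 with 1 library left out. Hp1bp3 averaged over strains passed by DESeq2 (adjusted p = 0.00961), without B6 KD 3 (0.031) and without D2 KD 3 (0.0283), the KD library with the most Hp1bp3 in each strain, so leaving it out lowers the KD level by construction. The cause of the other differences was not tested.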
